A study of Saccharomyces cerevisiae BY4741 with 4 samples.

Results

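The nuclear genes of the mitochondrial respiratory chain and the ATP synthase were followed in budding yeast, as 37 genes chosen by gene identifier from a table of 7382 features. They encode 11 subunits of ATP synthase, 9 of cytochrome c oxidase, 9 of the bc1 complex, 4 of succinate dehydrogenase, both isoforms of cytochrome c and the NADH dehydrogenases NDI1 and NDE1. All 37 had a line of their own in the table and all passed the filter on low counts. Poly(A) RNA and total RNA were sequenced in 2 biological replicates each, from wild type cells of strain BY4741 grown in YPD, a rich glucose medium, at 30 °C with shaking to an OD600 of 0.6. All libraries came from this 1 strain, medium and growth stage, so the contrast is between RNA fractions and not between respiring and fermenting cells. Per the labels, poly(A) RNA was captured on oligo-dT beads before a commercial kit removed residual rRNA, and libraries of both fractions were primed with random hexamers and read as single 50-base reads.

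The respiratory chain passes electrons from NADH and succinate through ubiquinone, the bc1 complex and cytochrome c to cytochrome c oxidase, and ATP synthase uses the resulting proton gradient. Budding yeast lacks the large proton-pumping NADH dehydrogenase of mammals and uses single-protein NADH dehydrogenases instead. On glucose the cells mainly ferment, and transcription of many respiratory genes is held low by glucose repression and raised by the CCAAT-binding Hap2/3/4/5 complex. COX5A and CYC1 are the isoform genes used in air, and COX5B and CYC7 their counterparts induced at low oxygen. BY4741 belongs to the S288C background, whose HAP1 gene, a heme-responsive regulator of cytochrome genes, carries a transposon insertion.

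The 2 poly(A) libraries held 52851542 and 53180654 counts and the 2 total RNA libraries 53746838 and 75955489. Nuclear features labelled mRNA took 99.8% of the poly(A) counts in both libraries and 3.14% and 3.15% of the total RNA counts. The 37 genes therefore had 219792 and 218323 counts in poly(A) RNA, with a median of 3655 and 3609 per gene, against 6049 and 8240 counts in total RNA, with a median of 78 and 121. Their share of all nuclear coding counts was 0.417% and 0.411% in poly(A) RNA and 0.358% and 0.345% in total RNA. The lowest count in total RNA was 9, for CYC7 in replicate 1, and every gene had fewer counts in total RNA than in poly(A) RNA. BY4741 is of mating type a, and STE2, the receptor gene of a cells, had 57429 and 62048 poly(A) counts, while the alpha-cell genes MF(ALPHA)1, for the pheromone, and STE3, for a receptor, had 31 and 37 and 302 and 326. HIS3, which BY4741 carries with an internal deletion, had 4686 and 5481 poly(A) counts.

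The start-proximal DNA of these genes was searched for the letters CCAAT, on either strand, because the Hap2/3/4/5 complex is known to bind them. In the 300 bases before the start codon, 32 of the 37 genes (86.5%) held CCAAT, against 42.3% of 5866 nuclear coding genes. The longer form CCAATCA, which contains CCAAT and was looked for after that count was known, was present on either strand in 16 of 37 genes (43.2%) and in 3.07% of all 5866. The nearest copy ended between 23 and 280 bases before the start codon, with a median of 189.0. For each complex that had the longer form, the gene with the highest poly(A) level among its carriers is shown, with the match in capitals in the direction of the gene. Sequences are from the RefSeq genome of build R64, and COX5B, which has only the shorter form, is added as the hypoxic isoform.
ATP17 (chrIV:1228363-1228407, plus strand): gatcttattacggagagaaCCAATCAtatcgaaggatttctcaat
COX5A (chrXIV:531559-531603, plus strand): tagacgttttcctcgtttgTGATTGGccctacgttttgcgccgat
QCR7 (chrIV:1496704-1496748, minus strand): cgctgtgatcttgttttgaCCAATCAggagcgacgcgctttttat
SDH3 (chrXI:179619-179663, plus strand): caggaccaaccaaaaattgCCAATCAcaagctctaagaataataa
NDI1 (chrXIII:30009-30053, minus strand): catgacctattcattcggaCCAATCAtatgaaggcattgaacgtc
COX5B (chrIX:155130-155174, plus strand): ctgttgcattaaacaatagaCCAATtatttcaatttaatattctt

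By complex, CCAAT was present before all 11 ATP synthase genes, 8 of 9 cytochrome c oxidase genes, 7 of 9 bc1 genes, all 4 succinate dehydrogenase genes and both NADH dehydrogenase genes. COX4, COR1, CYT1 and both cytochrome c genes lacked it in this window. Among other genes of the pathway it was present in 14 of 19 electron donors and carriers, 7 of 12 accessory subunits and inhibitors, 13 of 35 assembly factors, 6 of 14 regulators and 1 of 7 hypoxic genes outside the chain. These are letter matches in 1 window and were not tested as binding sites.

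Genes were compared by their level, the CPM of nuclear coding counts (counts scaled to the same coding sum in every library) divided by the coding length in kilobases. The 37 genes spanned a 25.4-fold range of mean poly(A) levels, with SDH1 lowest at 20.9 and QCR7 highest at 531. Their median poly(A) level was 164.0, at the 82.8th percentile of 5866 nuclear coding genes, and the median gene of the set was at the 80.8th percentile in total RNA. In total RNA the range was 40.8-fold, with CYC7 lowest at 15.1 and ATP2 highest at 617. Across the 37 genes, levels in both fractions had a Spearman correlation of 0.80, a description over genes that share the same libraries.

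**Figure D1:**
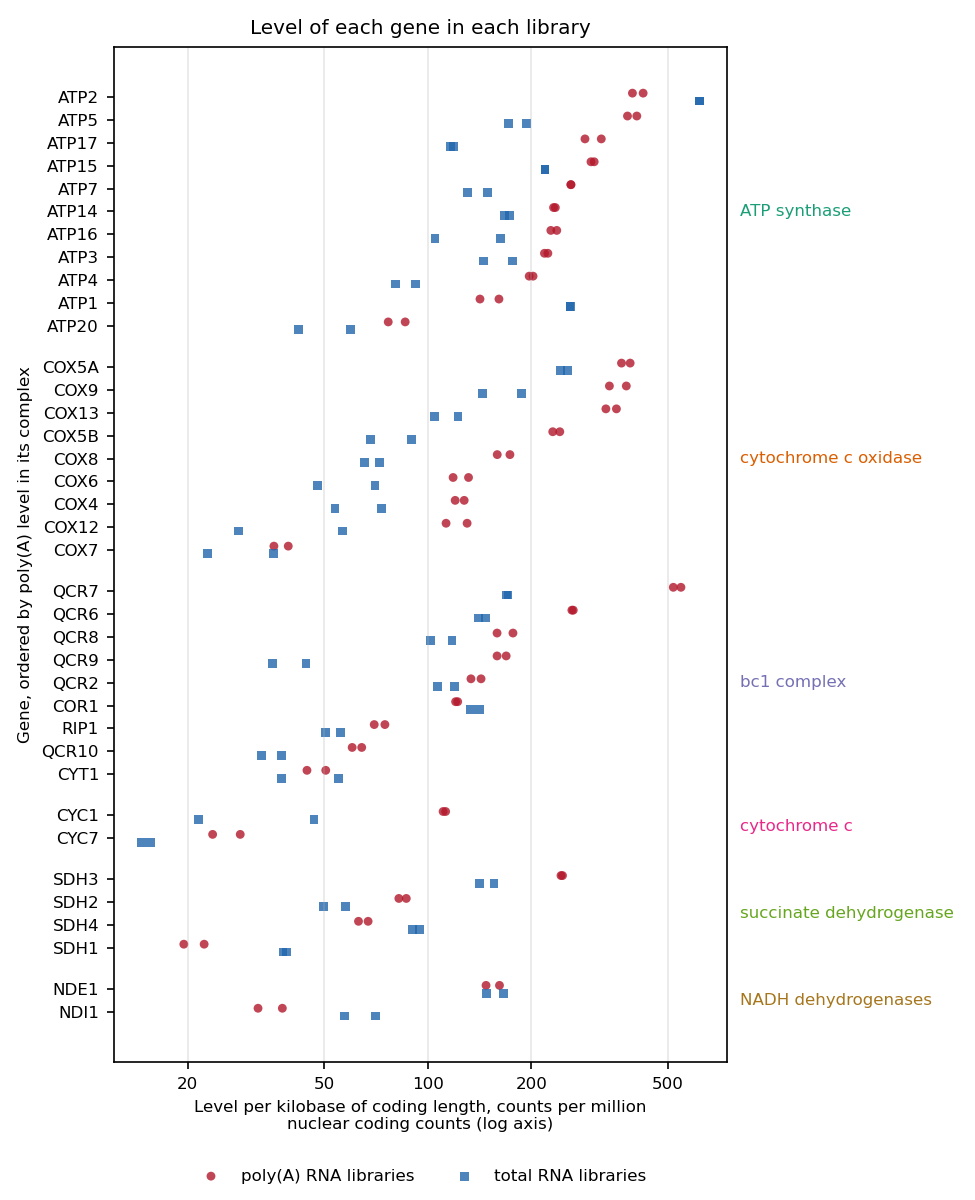
Level of each of the 37 genes in each library, as nuclear coding CPM per kilobase of coding length on a log axis. Red circles are the 2 poly(A) libraries and blue squares the 2 total RNA libraries, and genes are ordered by mean poly(A) level within each complex; ATP2 and ATP1 lie lower in poly(A) RNA while QCR7 stands at 518 and 545 there, against 171 and 169 in total RNA.

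ATP synthase, whose catalytic head is built from ATP1 and ATP2 around the rotor subunit ATP3, had the highest levels of the complexes by median, 233 in poly(A) RNA and 161 in total RNA. ATP2, the catalytic beta subunit (YJR121W, chromosome X, 647607 to 649142), had levels of 423 and 394 in poly(A) RNA, against 617 and 617 in total RNA. ATP1, the alpha subunit (YBL099W, chromosome II, 37053 to 38690), had 161 and 142 in poly(A) RNA, against 260 and 259 in total RNA. Both poly(A) libraries thus lay below both total RNA libraries for each of these head subunits. The ATP2 level was 2.63 and 2.78 times that of ATP1 in the poly(A) libraries and 2.37 and 2.38 times in the total RNA libraries. The single-gene line of ATP1 leaves out 1120 and 945 poly(A) counts and 69 and 112 total RNA counts on a line that joins it with the overlapping YBL100C.

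The other ATP synthase genes were shorter and lay on the other side. ATP17, subunit f of the membrane part (YDR377W, chromosome IV, 1228611 to 1228916), had levels of 286 and 320 in poly(A) RNA, against 116 and 119 in total RNA. ATP20, subunit g, which is needed for ATP synthase dimers, was lowest in the complex at 76.7 and 85.9 in poly(A) RNA, against 59.5 and 42.1 in total RNA. ATP4, ATP5, ATP7 and ATP14 of the peripheral stalk, which holds the head in place, had mean poly(A) levels between 199.7 and 393. ATP3, ATP15 and ATP16 of the central rotor stalk had between 221 and 301. For these 9 genes the lower poly(A) library exceeded the higher total RNA library in level, as it did for 59.2% of 5866 nuclear coding genes on this scale.

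Cytochrome c oxidase, the terminal enzyme, has a core encoded in mitochondrial DNA, and the genes here encode its nuclear subunits. COX5A, subunit Va (YNL052W, chromosome XIV, 531725 to 532186), was the highest at 366 and 388 in poly(A) RNA, against 255 and 243 in total RNA. COX7, subunit VII (YMR256C, chromosome XIII, 778945 to 779127), was the lowest at 35.6 and 39.2 in poly(A) RNA, against 35.6 and 22.9 in total RNA, where it had 11 and 10 counts. The gene of subunit VIIa, COX9, has nearly the same coding length (180 bases, against 183 for COX7). Its level was 9.47 and 9.63 times that of COX7 in poly(A) RNA and 5.27 and 6.30 times in total RNA. COX13 and COX9 followed COX5A closely in poly(A) RNA, with means of 342 and 358, while COX4, COX6 and COX12 lay between 122 and 125.

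The bc1 complex, which moves electrons from ubiquinol to cytochrome c, held the highest poly(A) level of the set. QCR7, a small subunit on the matrix side (YDR529C, chromosome IV, 1496165 to 1496548), stood at 518 and 545 in poly(A) RNA, against 171 and 169 in total RNA. CYT1, cytochrome c1 and so one of the catalytic subunits (YOR065W, chromosome XV, 447439 to 448368), stood at 50.4 and 44.5 in poly(A) RNA, against 37.6 and 54.9 in total RNA. The fractions did not overlap for QCR7 and overlapped for CYT1. The QCR7 level was 10.3 and 12.3 times that of CYT1 in poly(A) RNA and 4.56 and 3.08 times in total RNA. RIP1, the Rieske iron-sulfur protein and another catalytic subunit, was also low, at 75.0 and 69.8 in poly(A) RNA, against 50.2 and 55.5 in total RNA. QCR9, a small membrane subunit (YGR183C, chromosome VII, 859063 to 859476), had 159 and 169 in poly(A) RNA, against 44.2 and 35.4 in total RNA. COR1, a core protein (YBL045C, chromosome II, 134143 to 135516), had 122 and 120.4 in poly(A) RNA, against 133 and 141 in total RNA. Both libraries of a fraction lay on the same side for each of these genes, QCR9 above and COR1 below in poly(A) RNA.

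Succinate dehydrogenase and the NADH dehydrogenases feed electrons into the chain. SDH3, a membrane anchor that also serves in the TIM22 protein translocase (YKL141W, chromosome XI, 179667 to 180263), had levels of 246 and 244 in poly(A) RNA, against 156 and 142 in total RNA. SDH1, the flavoprotein (YKL148C, chromosome XI, 169207 to 171129), had 22.3 and 19.5 in poly(A) RNA, against 38.8 and 37.9 in total RNA. The anchor exceeded the flavoprotein 11.03- and 12.5-fold in poly(A) RNA and 4.01- and 3.74-fold in total RNA. NDE1, which oxidises cytosolic NADH at the outer face of the inner membrane (YMR145C, chromosome XIII, 554793 to 556475), had 162 and 148 in poly(A) RNA, against 166 and 148 in total RNA. NDI1, which oxidises NADH of the matrix (YML120C, chromosome XIII, 28266 to 29807), had 37.7 and 32.0 in poly(A) RNA, against 70.3 and 57.3 in total RNA. The libraries of both fractions overlapped for NDE1 and not for NDI1. NDE1 was above NDI1 in every library, 4.28- and 4.61-fold in poly(A) RNA and 2.36- and 2.58-fold in total RNA.

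The aerobic and hypoxic isoforms were compared next. No 50-base stretch of any of the 37 coding sequences, the read length used, occurs elsewhere in the genome. The coding sequences of COX5A and COX5B align with 65.5% identity and those of CYC1 and CYC7 with 74.9%, with longest identical runs of 11 and 35 bases. The stretch that encodes the heme attachment motif Cys-x-x-Cys-His is shown for the cytochrome c genes and for CYT1, since it is the part of these proteins that all c-type cytochromes share. Capitals mark the 5 codons of the motif.
CYC1 (chrX:526374-526424, plus strand): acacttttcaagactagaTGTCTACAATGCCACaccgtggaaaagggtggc
CYC7 (chrV:79876-79926, minus strand): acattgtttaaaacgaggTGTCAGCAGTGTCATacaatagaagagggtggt
CYT1 (chrXV:447721-447771, plus strand): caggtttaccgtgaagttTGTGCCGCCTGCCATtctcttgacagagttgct

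COX5B, the hypoxic isoform of subunit V (YIL111W, chromosome IX, 155222 to 155765), had levels of 231 and 242 in poly(A) RNA, against 89.6 and 67.9 in total RNA. It took 38.4% and 38.1% of the counts of the pair in poly(A) RNA (exact binomial 95% intervals 37.6% to 39.2% and 37.4% to 38.9%). In total RNA it took 25.7% and 21.6% (20.6% to 31.4% and 17.4% to 26.4%). The intervals of the fractions did not overlap, though they cover counting error only. Per kilobase, COX5A exceeded COX5B 1.59- and 1.60-fold in poly(A) RNA, against 2.85- and 3.57-fold in total RNA. The log2 ratio of COX5A over COX5B averaged 0.67 ± 0.01 in poly(A) RNA and 1.67 ± 0.23 in total RNA (SD, n = 2 each), a difference of -1.001. The two-sided exact permutation test gave p = 0.333, the smallest that 2 against 2 libraries allow, and the same after adjustment over both pairs.

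CYC1, the aerobic cytochrome c (YJR048W, chromosome X, 526335 to 526664), had levels of 111 and 113 in poly(A) RNA, against 46.6 and 21.6 in total RNA. CYC7, the hypoxic isoform (YEL039C, chromosome V, 79636 to 79977), had 28.4 and 23.6 in poly(A) RNA, against 15.6 and 14.7 in total RNA. CYC7 held 513 and 429 poly(A) counts and only 9 and 12 total RNA counts. Its share of the pair was 21.0% and 17.9% in poly(A) RNA (19.4% to 22.7% and 16.4% to 19.5%) and 25.7% and 41.4% in total RNA (12.5% to 43.3% and 23.5% to 61.1%). The interval of total RNA replicate 1 included both poly(A) shares, so a difference was not detectable at that depth in that library, while the interval of replicate 2 lay above both. The log2 ratio of CYC1 over CYC7 averaged 2.11 ± 0.21 in poly(A) RNA and 1.07 ± 0.73 in total RNA (SD, n = 2 each; exact permutation p = 0.333, also after adjustment over both pairs). The difference of 1.04 was 0.52 without total RNA replicate 2 and 1.55 without total RNA replicate 1. The hypoxic isoform was below the aerobic one in all 4 libraries for both pairs, except that the counting interval of the CYC1 to CYC7 ratio in total RNA replicate 2, 0.661 to 3.37, includes equality. The share of COX5B lay higher and that of CYC7 lower in poly(A) RNA than in total RNA.

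**Figure D2:**
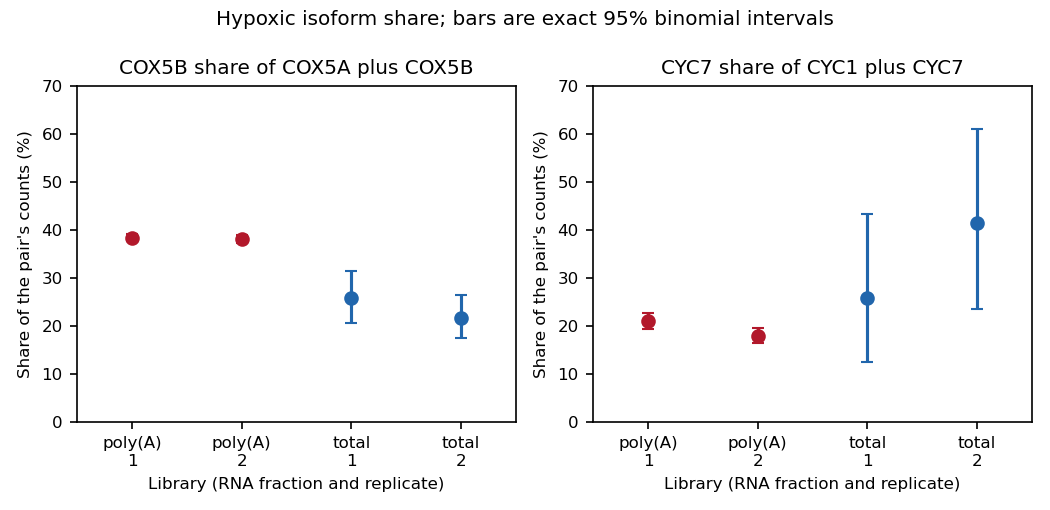
Share of the hypoxic isoform in the counts of its pair (%), for COX5B on the left and CYC7 on the right, in each poly(A) library (red) and each total RNA library (blue), with exact binomial 95% intervals as bars. COX5B stands at 38.4% and 38.1% in poly(A) RNA against 25.7% and 21.6% in total RNA, and the total RNA intervals of CYC7 are wide.

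Whether the genes had the same relative abundance in both fractions was tested with edgeR on the whole table. Bead capture and the later removal of residual rRNA cannot be told apart in this contrast. A log2 fold change is poly(A) over total RNA after TMM scaling, which sets the typical feature near 0 and describes relative abundance, not RNA per cell. Of the 37 genes, 19 were higher in poly(A) RNA (51.4%), 7 lower (18.9%) and 11 did not pass at an adjusted p under 0.05. Of all 6945 features tested, 31.0% were higher and 31.2% lower, 62.2% in all, and of the 6781 nuclear features labelled mRNA among them 31.6% and 30.2%, or 61.8%. In TMM-scaled CPM, both poly(A) values exceeded both total RNA values for 26 of the 37 genes (42.8% of all features) and fell short of them for 7 (38.3% of all features). The fractions overlapped for COX7, QCR2, RIP1 and CYT1. The median log2 fold change was 0.41 over the 37 genes and 0.044 over all features. Leaving out a library gave between 16 and 21 higher and 7 or 8 lower. With scaling to the nuclear coding sum, which moved the median of all features to 0.37, 28 were higher and 5 lower, against 45.1% and 22.1% of all features. With library totals, which moved it to 5.34, all 37 were higher, against 98.8% of all features higher and 1.08% lower. When the trend with coding length was removed, 7 of the 37 genes were higher and 13 lower, against 22.4% and 27.6% of all features.

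**Figure D3:**
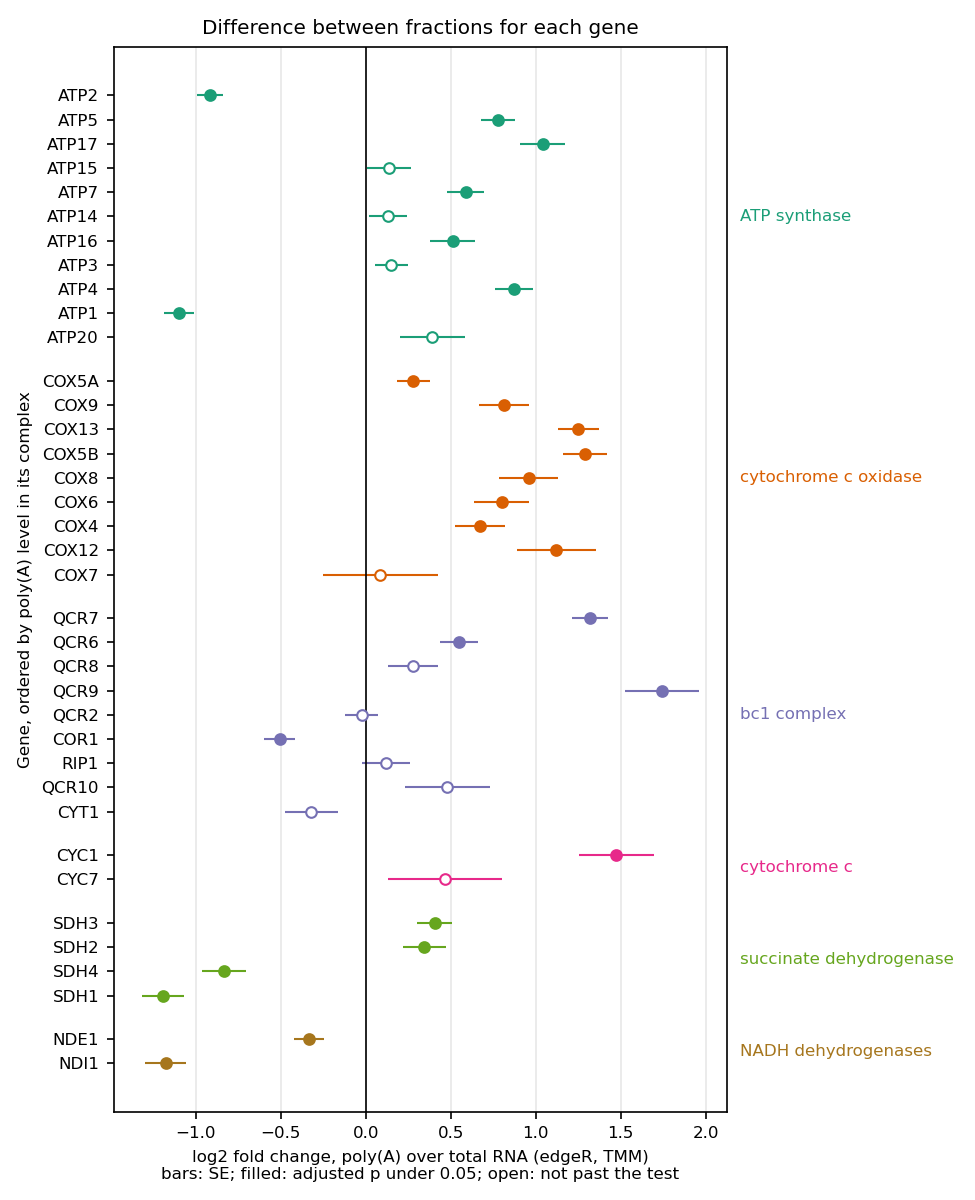
Log2 fold change of each gene, poly(A) over total RNA, with its SE as a bar, by complex. Filled points pass an adjusted p under 0.05 and open points do not; 8 of 9 cytochrome c oxidase genes lie above 0 and pass, and both NADH dehydrogenases lie below 0 and pass.

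Calls were also counted by complex, of 2 to 11 genes each, beside 31.0% higher and 31.2% lower of all features. Cytochrome c oxidase had 8 genes higher, 0 lower and 1 that did not pass, and its median log2 fold change was 0.81. All 9 of its genes have coding sequences of at most 468 bases. Among nuclear coding genes under 600 bases, 52.2% were higher and 7.89% lower. With the length trend removed 2 oxidase genes were higher, COX5B and COX13, and 1 lower, COX5A, with a median of 0.15. COX4, COX6, COX8, COX9 and COX12 then had values between 0.02 and 0.39 and did not pass (edgeR adjusted p between 0.200 and 0.912). COX5B had the largest value in it, 1.29 (SE 0.13, edgeR adjusted p = 2.14e-08), and COX13, COX12 and COX8 had 1.25, 1.12 and 0.96. COX12 had 12 and 34 counts in total RNA, and its value was 1.82 without replicate 2 of that fraction. COX7 had 0.09 (SE 0.34, edgeR adjusted p = 0.845), and -0.21 without total RNA replicate 2. COX5A had 0.28 (SE 0.10, edgeR adjusted p = 0.0161). The COX5A call was lost without poly(A) replicate 2 (0.26, adjusted p = 0.0569), without total RNA replicate 2 (0.28, adjusted p = 0.0633) and in DESeq2 (0.25, adjusted p = 0.0508).

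ATP synthase had 5 genes higher, 2 lower and 4 that did not pass, with a median of 0.39. With the length trend removed 2 were higher, ATP17 and ATP4, and 4 lower, with a median of -0.23. These 4 were ATP1, ATP2, ATP14 and ATP15, of which ATP14 and ATP15 had -0.54 and -0.63 (edgeR adjusted p = 0.000449 and 0.000475). Without that removal the higher genes were ATP17 at 1.04 (SE 0.13, edgeR adjusted p = 5.00e-07), ATP4 at 0.87 and ATP5 at 0.78. ATP7 and ATP16 were also higher, at 0.59 and 0.51. ATP16 did not pass without total RNA replicate 2 (0.23, adjusted p = 0.189) and stood at 0.81 without total RNA replicate 1. The lower genes were ATP1 at -1.10 (SE 0.09, edgeR adjusted p = 3.62e-10) and ATP2 at -0.92 (SE 0.08, edgeR adjusted p = 9.52e-10). Both head subunits have the longest coding sequences of the complex, 1638 and 1536 bases, against at most 936 for the others. Without total RNA replicate 1, ATP3 and ATP20 also passed, at 0.27 and 0.61 (adjusted p = 0.0429 and 0.0249).

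The bc1 complex had 3 genes higher, 1 lower and 5 that did not pass, with a median of 0.28. QCR9 had the largest value of the 37 genes, 1.74 (SE 0.22, edgeR adjusted p = 4.86e-07), from 1685 and 1802 counts in poly(A) RNA and 15 and 17 in total RNA. QCR7 and the acidic hinge protein QCR6 were also higher, at 1.32 and 0.55 (SE 0.11 each). COR1 was lower, at -0.50 (SE 0.09, edgeR adjusted p = 5.76e-05), but its call was lost under the nuclear coding sum (-0.18). CYT1 had -0.32 (SE 0.16, edgeR adjusted p = 0.0797). The value of CYT1 turned on total RNA: it was 0.05 without replicate 2 and passed at -0.55 without replicate 1 (adjusted p = 0.00188). With a replicate block, a fit that treats same-numbered libraries as linked, CYT1 also passed, at -0.33 (adjusted p = 0.0368). With the length trend removed, 2 genes of the complex were higher, QCR7 and QCR9, and 5 lower, with a median of -0.29. These 5 were COR1, QCR2, QCR8, RIP1 and CYT1, the last at -0.70 (edgeR adjusted p = 0.000870).

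The electron donors held the genes with the lowest values. Of the cytochrome c genes CYC1 was higher, at 1.47 (SE 0.22, edgeR adjusted p = 6.13e-06) and 0.97 without total RNA replicate 2, and CYC7 had 0.47 (SE 0.33, edgeR adjusted p = 0.236). In succinate dehydrogenase SDH3 and SDH2 were higher, at 0.41 and 0.35 (SE 0.10 and 0.13). SDH1 and the second anchor SDH4 were lower, at -1.19 and -0.83 (SE 0.12 and 0.13, edgeR adjusted p = 2.71e-08 and 1.10e-05). With the length trend removed SDH1 and SDH4 stayed lower, while SDH3 and SDH2 did not pass (-0.22 and -0.14, edgeR adjusted p = 0.0862 and 0.374). The call of SDH2, the iron-sulfur protein, was lost without poly(A) replicate 1 (0.34, adjusted p = 0.0839) and without total RNA replicate 2 (0.26, adjusted p = 0.200), and in DESeq2 (0.32, adjusted p = 0.0831). NDI1 and NDE1 were lower, at -1.18 and -0.33 (SE 0.12 and 0.09, edgeR adjusted p = 2.65e-08 and 0.00242). The NDE1 call was lost under the nuclear coding sum (-0.01).

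Coding length moved with these differences. The Spearman correlation of log2 fold change with coding length was -0.61 over the 37 genes and -0.61 over 5772 nuclear coding genes tested, as a description across genes of the same libraries. The 37 genes are short, with a median coding length of 462 bases, against 1203 for all. Of 24 genes under 600 bases, 16 were higher and 1, SDH4, lower, and the median log2 fold change was 0.57. Among the 1116 nuclear coding genes of that length 52.2% were higher and 7.89% lower, around a median of 0.62. All 6 genes of at least 1200 bases were lower, with a median of -1.01, against 52.8% of 2899 such genes and a median of -0.36.

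With the length trend removed, the median over the 37 genes was -0.22. QCR9, CYC1, QCR7, COX5B and COX13 stayed higher, at 0.99, 0.78, 0.65, 0.64 and 0.58, as did ATP17 and ATP4, at 0.33 each, while ATP5 no longer passed (0.17, edgeR adjusted p = 0.1701). SDH4 became the lowest, at -1.47, followed by NDI1, ATP1, SDH1 and ATP2 at -1.12, -0.97, -0.90 and -0.87. COX5A turned to -0.37 (edgeR adjusted p = 0.00340), so the isoforms of subunit V, of 462 and 456 bases, lay on opposite sides of the trend. Of the 6 longest genes, 5 still passed as lower and NDE1 did not (-0.17, edgeR adjusted p = 0.116).

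**Figure D4:**
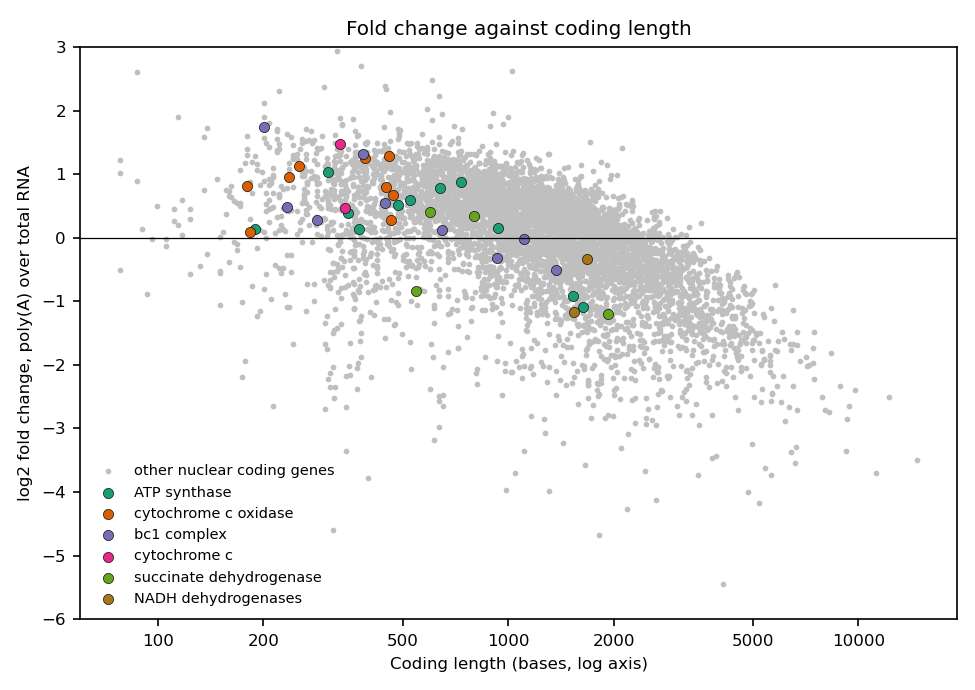
Log2 fold change, poly(A) over total RNA, against coding length in bases on a log axis, for the 37 genes by complex (coloured) and the other nuclear coding genes tested (grey). The 6 genes of at least 1200 bases all lie below 0, and SDH4 is the one gene under 600 bases among the 37 that was lower; 42 other genes lie outside the plotted range.

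Introns interrupt 3 of the 37 genes. Of these, QCR9 and COX5B were among the highest fold changes, while QCR10 had 0.48 (SE 0.25, edgeR adjusted p = 0.101). Total RNA held 15 and 17 counts of QCR9 and 13 and 21 of QCR10. All 3 are short, with coding lengths of 456, 201 and 234 bases in COX5B, QCR9 and QCR10. Among nuclear coding genes under 600 bases, 52.2% were higher and 7.89% lower. The first coding exons have 1, 3 and 6 bases in COX5B, QCR9 and QCR10, and the introns 88, 213 and 63 bases. Whether the deposited counts include intron reads or reads across the junction is not given in the sources used here, and its part in these values was not tested. The start of each intron is shown because it marks where such reads would divide, with the first 6 intron bases in capitals.
COX5B (chrIX:155222-155240, plus strand): aGCATGTataacaaacact
QCR9 (chrVII:859456-859476, minus strand): atgGTATGTtggtgtgtgtgt
QCR10 (chrVIII:107826-107849, plus strand): atggcgGTAAGTatcctatcatat

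The RNA-binding protein Puf3 is known to bind mRNAs of mitochondrial proteins and to recruit enzymes that shorten poly(A) tails. Its letters TGTANATA were searched on the gene's own strand in the 200 bases after the stop codon. They were present in 3 of the 37 genes (8.11%), against 14.3% of 5866 nuclear coding genes. The 3 carriers are shown with the match in capitals.
ATP1 (chrII:38729-38758, plus strand): tcaaaaagaaaTGTAAATAtagaaatttta
COX8 (chrXII:909679-909708, minus strand): ggatagatgtgTGTACATAgcgtgcttggt
SDH1 (chrXI:169090-169119, minus strand): actcactaattTGTATATAtacctattaat
ATP1 and SDH1 were lower in poly(A) RNA, as given above, while COX8 was higher. With the length trend removed ATP1 and SDH1 stayed lower and COX8 did not pass (0.22, edgeR adjusted p = 0.344). A part of Puf3 in these values was not tested. ATP1 and SDH1 are also among the 6 longest genes.

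Counts were also summed by complex, in nuclear coding CPM, a scale other than the TMM scaling of the medians above. ATP synthase took 2022 and 1967 nuclear coding CPM in poly(A) RNA, against 2025 and 1975 in total RNA, a ratio of 0.997. The libraries of both fractions overlapped (exact permutation p = 0.667). ATP2 carried the largest count, and without it the ratio was 1.30. With TMM scaling the log2 ratio of the ATP synthase sum was -0.32, against a median of 0.39 over its genes. For the other complexes the TMM-scaled sum and the median had the same sign. Cytochrome c oxidase took 645 and 695 in poly(A) RNA, against 330 and 297 in total RNA, a 2.14-fold difference, and without COX5A it was 2.50-fold. The bc1 complex took 828 and 826 in poly(A) RNA, against 556 and 579 in total RNA, 1.46-fold, and 1.24-fold without QCR7. Cytochrome c took 46.3 and 45.3 in poly(A) RNA, against 20.7 and 12.1 in total RNA, 2.79-fold, and 1.72-fold without CYC1.

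The complexes that feed electrons in lay on either side of equality. Succinate dehydrogenase took 296 and 283 nuclear coding CPM in poly(A) RNA, against 263 and 249 in total RNA, 1.13-fold, but 0.858-fold without SDH3. The NADH dehydrogenases took 330 and 298 in poly(A) RNA, against 387 and 337 in total RNA, 0.867-fold, and 0.547-fold without NDE1. For every complex but ATP synthase the fractions did not overlap. Each of these 5 had p = 0.333 in the two-sided exact permutation test, the smallest possible, and 0.400 after adjustment over the 6 complexes. On this scale the typical feature stands at a log2 value of 0.37, so the succinate dehydrogenase sum turned to -0.14 with TMM scaling, where the NADH dehydrogenases stood at -0.52, bc1 at 0.22, cytochrome c oxidase at 0.78 and cytochrome c at 1.17.

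**Figure D5:**
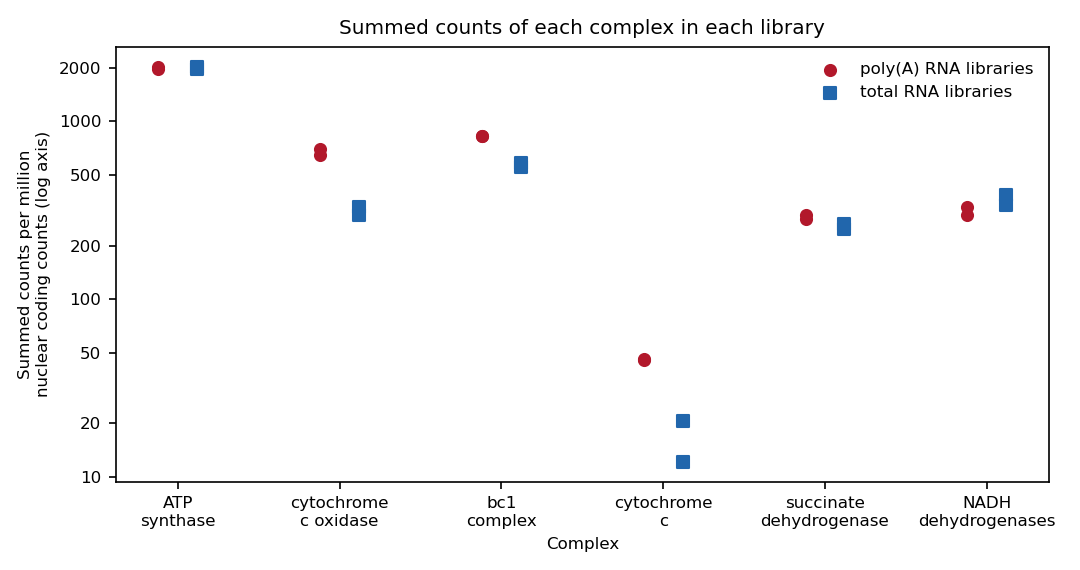
Sum over the genes of each complex, in nuclear coding CPM on a log axis, in each poly(A) library (red circles) and each total RNA library (blue squares). Cytochrome c oxidase stands at 645 and 695 in poly(A) RNA against 330 and 297 in total RNA, while the ATP synthase libraries of both fractions overlap between 1967 and 2025.

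Other genes of the pathway were taken from 5 lists of 86 measured genes, AAC3 being on 2 of them. Of these, 37 were higher, 24 lower and 25 did not pass, against 31.0% higher and 31.2% lower of all features tested. With the length trend removed 11 were higher and 29 lower, or under the nuclear coding sum 52 and 15, beside the shares of all features given above for these fits. Assembly factors, which build the complexes and insert their cofactors, had 19 of 35 higher and 4 lower, around a median log2 fold change of 0.43. CBP6, a factor for cytochrome b, PET100 and COX20, both for cytochrome c oxidase, led this list at 1.65, 1.09 and 0.98 (SE 0.32, 0.28 and 0.25). CBP6 had 882 and 859 counts in poly(A) RNA, against 11 and 6 in total RNA, where PET100 had 6 and 25 and COX20 11 and 17. With the length trend removed CBP6 still passed (1.01, edgeR adjusted p = 0.0183). PET100 and COX20 then did not (0.40 and 0.36, edgeR adjusted p = 0.286 and 0.281). The median of the assembly factors in that fit was 0.05. Besides CBP6, ATP11, ATP22, CYC2 and TCM62 were then higher, and ATP10, ATP23, COX15, COX19, PET117, CYC3 and CYT2 lower. Accessory subunits and inhibitors had 6 of 12 higher and 0 lower, with a median of 0.57. Their median coding length was 276 bases, and with the length trend removed their median was -0.12. Of all nuclear coding genes under 600 bases, 52.2% were higher and 7.89% lower. STF2, known for its part in regulating the ATP synthase, and SHH3, a homolog of SDH3, had 1.39 and 1.05 (SE 0.17 and 0.21). With the length trend removed STF2 passed at 0.66 (edgeR adjusted p = 0.00308) and SHH3 did not (0.42, edgeR adjusted p = 0.120). COX26, a small oxidase subunit, had 113 and 81 poly(A) counts against 0 and 2 in total RNA, a ratio of 2.99 after TMM scaling with an exact 95% counting interval of 0.816 to 24.8.

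Other electron donors and carriers had 10 of 19 higher and 6 lower, with a median of 0.46, against 31.0% and 31.2% of all features. The phosphate carrier MIR1, the main ADP/ATP carrier PET9 and the glycerol-3-phosphate dehydrogenase GUT2 were lower, at -1.55, -1.33 and -1.16 (SE 0.10, 0.10 and 0.17). MIR1 and PET9 supply ATP synthase with its substrates and have coding lengths of 936 and 957 bases. The hypoxic carrier gene AAC3, of 924 bases, was higher, at 0.68 (SE 0.20, edgeR adjusted p = 0.00589). AAC3 had 27 and 29 counts in total RNA and did not pass with the length trend removed (0.29, edgeR adjusted p = 0.256). Its mean level was 29.8 in poly(A) RNA, against 91.0 for PET9 there, and 15.2 in total RNA, against 183 for PET9. With the length trend removed the median of this whole list was 0.09. COQ4, COQ5, COQ7 and COQ8 were then higher, and DLD1, GUT2, COQ1, COQ9, PET9 and MIR1 lower.

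Hypoxic genes outside the chain had 2 of 7 higher, ANB1 and AAC3, and 3 lower, against 31.0% and 31.2% of all features. The median of this list was 0.16. The mannoprotein gene TIR1 and the HMG-CoA reductase gene HMG2 were lower, at -1.57 and -1.22 (SE 0.10 and 0.08). With the length trend removed ANB1 and AAC3 did not pass (-0.05 and 0.29, edgeR adjusted p = 0.870 and 0.256). TIR1, OLE1 and HMG2 then stayed lower, at -2.09, -0.34 and -0.31. DAN1, a wall protein made without oxygen, had 56 and 56 poly(A) counts and 1 in each total RNA library, a ratio of 1.72 after TMM scaling with a counting interval of 0.466 to 14.4. HEM13, a heme synthesis gene repressed by oxygen, had 13957 and 14769 poly(A) counts against 313 and 480 in total RNA, and its log2 fold change was 0.16 (SE 0.09, edgeR adjusted p = 0.119).

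Regulators went mainly the other way, with 1 of 14 higher and 11 lower, against 31.0% and 31.2% of all features. Their median was -1.07. PUF3, the corepressor TUP1 and ROX1, the repressor of hypoxic genes, had -4.12, -2.20 and -2.03 (SE 0.10, 0.08 and 0.12). Of the 4 subunits of the CCAAT-binding complex, all given here because its letters were searched above, HAP3 was higher at 1.09 (SE 0.17) and HAP4, the regulated activation subunit, lower at -0.37 (SE 0.10). With the length trend removed HAP3 stood at 0.44 (edgeR adjusted p = 0.0490) and the HAP4 call was lost (-0.22, edgeR adjusted p = 0.0836). The levels of HAP4 overlapped, at 148 and 126 in poly(A) RNA, against 160.0 and 126 in total RNA. HAP2 and HAP5 had -0.08 and 0.20 and did not pass. With the length trend removed HAP2 passed as lower (-0.57, edgeR adjusted p = 0.00244) and HAP5 did not pass (-0.35, edgeR adjusted p = 0.162). Mean poly(A) levels were 137 for HAP4, 134 for HAP3, 49.1 for HAP2 and 28.5 for HAP5. The median coding length of the regulators was 1590 bases, and with the length trend removed their median was -0.53.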

How the data were processed

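The authors deposited whole-number read counts for each feature in each of the 4 libraries, per the file headers and the values. Per the submitters' processing notes, FastQC 0.11.8, cutadapt 1.18, Bowtie2 2.3.4.3 and build R64 were used. How reads were counted, with or without strand, and what was done with reads of several matches is not given in the sources used here. There are 622 features with joined gene names, and 5 lines were blank.

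Coding lengths, positions and sequences came from the RefSeq genome of build R64, where all 37 genes matched by identifier and symbol and 86 of 87 other pathway symbols matched. Differences between fractions were tested over the whole table in edgeR 4.0.16 under R 4.3.3, with filterByExpr, TMM, quasi-likelihood F tests and adjustment over all features by Benjamini-Hochberg at 0.05. The SE is the size of the log2 fold change divided by the square root of F. DESeq2 1.42.0 was an alternative. The length trend was a loess fit of log2 fold change on log2 coding length (span 0.3), removed through offsets. Ratios and sums were compared with exact two-sided permutation tests (scipy 1.17.1), and shares have exact binomial 95% intervals.

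All 37 genes are accounted for. Library values are printed for the isoforms and for the highest and lowest of each complex by level and by fold change, with other genes by range and count, plus up to 3 genes of largest absolute fold change per list. COX9, RIP1, HEM13, ANB1, AAC3 and the HAP genes were added after their values were seen. The genes and lists were chosen with earlier results of these data known.

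Labels call the libraries biological replicates without naming separate cultures, so p-values measure the spread between these libraries. Replicates differed by more than counting noise (chi-square per degree of freedom 27.9 in poly(A) RNA and 1.86 in total RNA). Reads amplified by PCR carry no molecular identifiers and may repeat a molecule, so intervals cover counting error only.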

Additional observations from a re-analysis of the deposited data

How the results depend on the processing

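Directions depend on scaling and on length. The count of the 37 genes that were higher or lower was 37 and 0 with library totals and 7 and 13 with the length trend removed. For the 86 other pathway genes it was 86 and 0 with library totals, 11 and 29 with the length trend removed, and 52 and 15 under the nuclear coding sum. Over all features the shares higher and lower were 98.8% and 1.08%, 22.4% and 27.6%, and 45.1% and 22.1% under these settings. RLE size factors, coding features only, no filter and the joined lines changed no call among the 37 genes, and neither did a minimum of 10 counts in every library among the 36 genes it kept (CYC7 was dropped). Leaving out a library gave 16 to 21 higher and 7 to 8 lower, against 26.2% to 30.1% and 27.3% to 29.5% of all features.

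Under library totals the values of ATP1, ATP2, COR1, QCR2, CYT1, SDH1, SDH4, NDI1 and NDE1 turned to 4.21, 4.39, 4.81, 5.28, 4.99, 4.11, 4.48, 4.13 and 4.97, by construction since rRNA fills the total RNA libraries. Under the nuclear coding sum QCR2 and CYT1 turned to 0.30 and 0.0032. With the length trend removed, ATP3, ATP7, ATP14, ATP15, ATP16 and ATP20 turned to -0.23, -0.052, -0.54, -0.63, -0.13 and -0.30, COX5A and COX7 to -0.37 and -0.68, QCR6, QCR8, QCR10 and RIP1 to -0.10, -0.44, -0.26 and -0.48, and CYC7, SDH2 and SDH3 to -0.22, -0.14 and -0.22. Leaving out a library moved QCR2 between -0.074 and 0.047, CYT1 between -0.55 and 0.052, and COX7 between -0.21 and 0.37.

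The log2 sum of ATP synthase, -0.0037, turned to 0.38 without ATP2 and ranged from -0.024 to 0.016 without a library. That of succinate dehydrogenase, 0.18, turned to -0.14 with TMM and -0.22 without SDH3. The log2 ratio of COX5A over COX5B in poly(A) RNA was 0.69 on plain counts, against 0.67 per kilobase. Beyond CYT1, the replicate block changed no call among the 37 genes (19 higher and 8 lower). Same-numbered libraries deviated together (Pearson r = 0.354 over 2921 coding features), but the labels do not say that numbers link the fractions.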
